A study of Mus musculus with 26 samples.

Results

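The genes described here are 9 interferon-induced genes of ISG15 conjugation and of the PARP9 complex: Isg15, Usp18, Uba7, Ube2l6, Herc6, Trim25, Parp9, Dtx3l and Parp14. They were taken by name from the authors' MC38 and T cell expression tables, a choice made with earlier results of these data known. Each symbol was found once in both tables. All 9 passed the filter on low counts, among 14835 genes tested in MC38 cells and 13753 in T cells.

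RNA was sequenced from poly(A) libraries of MC38/gp100 cells, mouse colon adenocarcinoma cells that express the antigen gp100, and of pmel-1 T cells, taken from mice with a transgenic T cell receptor. The study is about inhibitors of PRMT5, an arginine methyltransferase, some of which act together with the metabolite MTA that builds up when Mtap is lost. The MC38 groups were wild-type (WT) and Mtap knockout (KO) cells, each with DMSO, 0.5 uM GSK3326595 or 0.5 uM MRTX1719 for 5 days. The T cells, labelled WT and kept in IL-2, had the same 3 treatments for 3 days. Every group had 3 libraries except WT MC38 cells with MRTX1719, which had 2, numbered 1 and 3. The labels do not say whether the KO line is a single clone or how many mice gave the T cells. The treatment field of libraries 2 and 3 spells GSK3326595 with a different final digit, but all titles use 1 name, and these were kept as 1 group. Whether the libraries of a group are separate cultures or animals is not stated, so p-values reflect library spread alone, possibly technical.

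ISG15 is a small ubiquitin-like protein that interferon induces and that cells attach to other proteins in a chain of enzymes like that of ubiquitin. UBA7 activates it, UBE2L6 carries it, and a HERC family ligase attaches it to its targets, a role that HERC6 has in the mouse. USP18 removes it and also restrains signalling from the type I interferon receptor. PARP9 and DTX3L form a complex of an ADP-ribosyltransferase family member and a ubiquitin ligase, PARP14 is a related ADP-ribosyltransferase, and TRIM25 is a ubiquitin ligase of the RIG-I pathway to which ISG15 ligase activity has also been ascribed.

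The promoter of Isg15 carries the sequence letters for which interferon-stimulated genes are known. Upstream windows of 250 bases with 50 more from the start site were available from RefSeq (GRCm38.p6) for 6 of the 9 genes, namely Isg15, Uba7, Ube2l6, Herc6, Dtx3l and Trim25. The core of the interferon-stimulated response element was searched as 2 copies of GAAA with any 2 bases between them, and the STAT dimer site as TTCNNNGAA, on both strands. The first was found in the Isg15 window alone among the 6, in 3 overlapping copies whose first bases lie at positions -78, -72 and -66 from the start, and 3.44% of all 32851 windows held it. The second was found in none of the 6 and in 8.3% of all windows. Both motifs are short and a match is a description of letters, not of binding. The last 120 bases before the start are shown for Isg15, with the overlapping matches in capitals. They are also shown for Uba7, Herc6 and Trim25, as examples of windows without a match to these exact letters. Looser forms of the motifs were not searched. Ube2l6 and Dtx3l hold no match either. Whether the motif bears on how the genes moved was not tested.
Isg15, chr4:156200819-156200938, minus strand: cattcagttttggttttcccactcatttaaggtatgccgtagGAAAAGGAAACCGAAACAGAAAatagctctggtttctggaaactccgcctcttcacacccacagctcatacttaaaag
Uba7, chr9:107975447-107975566, plus strand: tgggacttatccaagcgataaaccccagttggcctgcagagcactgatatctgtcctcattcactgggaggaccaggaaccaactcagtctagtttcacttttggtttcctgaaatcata
Herc6, chr6:57580872-57580991, plus strand: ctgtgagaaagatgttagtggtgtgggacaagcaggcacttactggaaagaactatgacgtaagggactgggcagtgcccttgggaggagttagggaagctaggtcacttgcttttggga
Trim25, chr11:88999283-88999402, plus strand: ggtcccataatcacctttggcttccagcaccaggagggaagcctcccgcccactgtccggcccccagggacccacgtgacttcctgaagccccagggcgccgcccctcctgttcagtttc
Among 25 other interferon-stimulated genes with a window, 13 held the first motif, as did 9 of 13 genes of the TRIM and RIG-I list.

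The libraries held between 19302768 and 27786226 counts for MC38 and between 13813406 and 20772699 for T cells. The 9 genes had from 36 (Ube2l6, T cells) to 6211 (Trim25, MC38 cells) counts in a library. Mtap was lower in the KO line, at 393 ± 4.61 against 271 ± 6.31 CPM under DMSO (SD, n = 3 each), and was not absent from it. Of 8 colon epithelial markers, only Krt8 averaged at least 1 CPM in MC38 cells, where Epcam had at most 1 count over the libraries of a group. The fibroblast genes Dcn and Pdgfra averaged 470.2 and 194 CPM in WT and 1186 and 265 CPM in KO cells under DMSO. All 8 T cell markers were expressed in the T cells, and Cd4 averaged under 1 CPM. On principal component 3 of the T cell table, GSK3326595 library 2 stood at -25.2 against 15.1 and 14.8 for the other 2 libraries of its group, and the 7 calls of the 9 genes with GSK3326595 were the same without it.

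The inhibitors lowered most of the 9 RNAs in T cells and, with GSK3326595, in MC38 cells, while MRTX1719 raised some of them slightly in WT MC38 cells. Levels are given as CPM, counts scaled to a common library size with TMM. Changes are log2 fold changes, tested with edgeR (quasi-likelihood) and called at a Benjamini-Hochberg adjusted p under 0.05 over the whole table. With GSK3326595, 8 of the 9 genes fell and 1 rose in WT cells, where 41.1% of all genes were called (20.1% higher, 21.1% lower). In KO cells 8 fell and 1 did not pass, beside 52.8% of all genes (25.1% lower). With MRTX1719 in WT cells 5 rose and 4 did not pass, beside 7.53% of all genes (3.62% higher). That comparison rests on 2 treated libraries: without MRTX1719 library 1, 3 of the 9 rose, and the number of all genes called went from 1117 to 433, and to 510 without library 3. In KO cells 4 fell, 2 rose and 3 did not pass, which is near the 70.5% called over all genes (37.0% higher, 33.6% lower). In T cells 5 fell, 2 rose and 2 did not pass with GSK3326595, beside 52.8% of all genes (26.6% higher, 26.2% lower). All 9 fell with MRTX1719, beside 37.4% of all genes (18.5% lower). The median log2 change of the 9 genes was -0.36 and -0.22 with GSK3326595 in WT and KO cells, 0.11 and 0.049 with MRTX1719, and -0.27 and -0.42 with the 2 inhibitors in T cells. Over all genes the median lay between -0.0068 and 0.0215 in each comparison. The 2 inhibitors share their DMSO libraries in each kind of cell, so their values are set side by side and are not independent of each other.

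**Figure D1:**
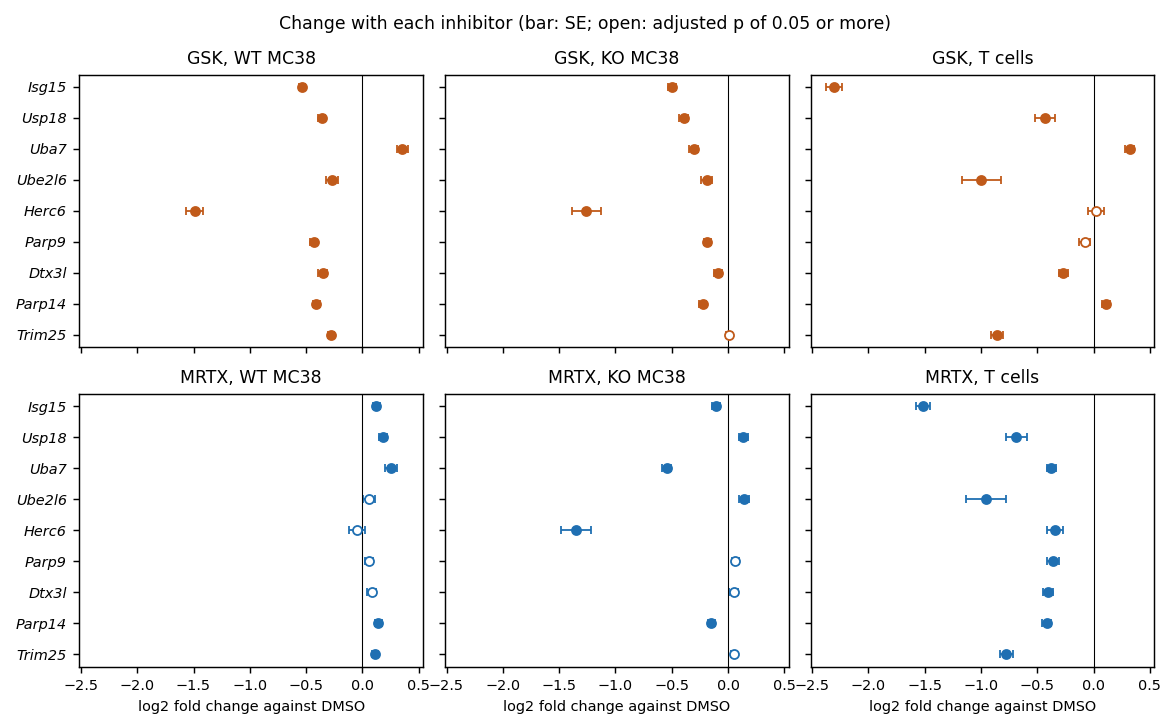
Log2 fold change of each gene against DMSO (x axis, bar: standard error) for GSK3326595 (top row) and MRTX1719 (bottom row) in WT MC38, KO MC38 and T cells. Open points did not pass an adjusted p of 0.05. Isg15 in T cells has the largest falls (-2.31 and -1.51), Herc6 falls by more than 1 in 3 of the 4 MC38 panels, and all 9 points lie below 0 for MRTX1719 in T cells.

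Isg15, the modifier itself, fell 4.98-fold in T cells with GSK3326595. The T cell libraries held 72.8, 71.1 and 73.3 CPM under DMSO, 14.4, 13.04 and 16.2 with GSK3326595 and 23.8, 26.9 and 25.2 with MRTX1719. The 3 groups did not overlap, and the GSK3326595 libraries were lowest. The log2 change was -2.31 ± 0.0679 (SE, adjusted p = 2.71e-49) with GSK3326595, a mean of 14.5 against 72.4 CPM. It was -1.51 ± 0.0631 (SE, adjusted p = 5.07e-37) with MRTX1719, at a mean of 25.3 CPM. In bulk RNA, fewer expressing cells and less RNA per cell cannot be told apart.

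In WT MC38 cells Isg15 stood at 162, 152 and 156 CPM under DMSO, 109, 105 and 110.4 with GSK3326595 and 174 and 167 with MRTX1719. The GSK3326595 libraries lay below both other groups, and the 2 MRTX1719 libraries just above DMSO. The log2 change with GSK3326595 was -0.54 ± 0.0295 (SE, adjusted p = 4.43e-36). The rise of 0.12 ± 0.0313 (SE, adjusted p = 0.00492) with MRTX1719 was small, and its adjusted p was 0.251 without MRTX1719 library 1 and 0.0687 without DMSO library 2. KO cells started lower, at 87.3, 92.6 and 91.4 CPM under DMSO, a log2 difference from WT of -0.79 ± 0.0308 (SE, adjusted p = 1.18e-52). They held 66.8, 61.5 and 64.1 CPM with GSK3326595 and 83.1, 85.9 and 83.1 with MRTX1719, all below the KO DMSO libraries. The falls were -0.50 ± 0.0344 (SE, adjusted p = 5.96e-28) and -0.11 ± 0.0334 (SE, adjusted p = 0.00286). GENCODE lists a near copy of Isg15 (AC151275.1, 95.2% identical over 482 bases), which had at most 1 count in any library.

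**Figure D2:**
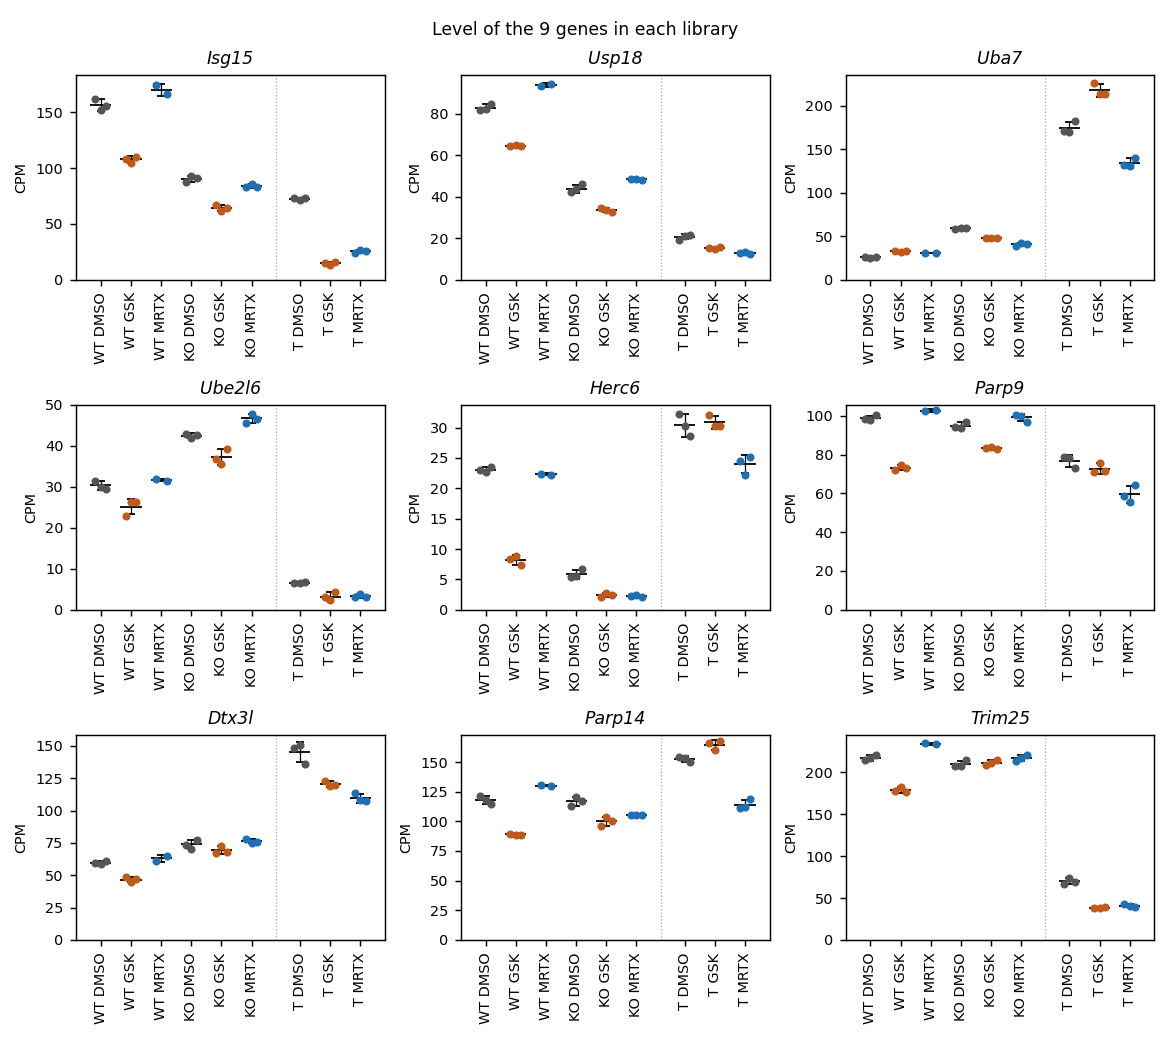
CPM (y axis, linear from 0) of each gene in every library, by group. Points are libraries, the line and bar are mean and SD, and the dotted line parts the separately normalized MC38 and T cell tables. Isg15 drops from 72.4 to 14.5 CPM with GSK3326595 in T cells, Herc6 is lowest in KO cells with either inhibitor, and Uba7 is higher in KO than in WT cells under DMSO and rises with GSK3326595 in T cells.

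Usp18, the protease that takes ISG15 off its targets, fell less than Isg15 in T cells. It held 19.2, 21.01 and 21.6 CPM under DMSO, 15.2, 14.5 and 15.7 with GSK3326595 and 12.9, 13.4 and 12.1 with MRTX1719. The 3 groups did not overlap, and here the MRTX1719 libraries were lowest. The changes were -0.44 ± 0.0879 (SE, adjusted p = 1.37e-05) and -0.69 ± 0.0914 (SE, adjusted p = 8.74e-10). In MC38 cells Usp18 and Isg15 were called in the same direction except with MRTX1719 in KO cells, where Usp18 rose and Isg15 fell. WT cells held 81.8, 81.9 and 84.8 CPM under DMSO, 64.1, 64.7 and 64.4 with GSK3326595 and 93.2 and 94.4 with MRTX1719, so that GSK3326595 lay below and MRTX1719 above every DMSO library. The changes were -0.36 ± 0.0342 (SE, adjusted p = 6.38e-18) and 0.18 ± 0.0361 (SE, adjusted p = 0.000167). KO cells held 42.04, 43.5 and 45.8 CPM under DMSO, 34.3, 33.6 and 32.3 with GSK3326595 and 48.2, 48.3 and 48.1 with MRTX1719, again in that order with no overlap. The changes were -0.40 ± 0.0432 (SE, adjusted p = 8.55e-15) and 0.14 ± 0.0411 (SE, adjusted p = 0.00206).

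Uba7, the enzyme that activates ISG15, rose with GSK3326595 in WT MC38 cells and, together with Parp14, in T cells, while most other members fell. In T cells it stood at 171, 169 and 182 CPM under DMSO, rose to 226, 214 and 213 with GSK3326595 and fell to 132, 130.1 and 140.3 with MRTX1719, with no overlap between the 3 groups. The changes were 0.32 ± 0.0389 (SE, adjusted p = 1.28e-11) and -0.38 ± 0.0402 (SE, adjusted p = 3.06e-13). Uba7 and Parp14 were the members that the 2 inhibitors moved in opposite directions in T cells. In WT MC38 cells it rose with both, from 25.9, 25.1 and 25.9 CPM under DMSO to 32.7, 32.1 and 33.3 with GSK3326595 and 30.6 and 30.6 with MRTX1719. In KO cells it fell with both, from 58.3, 59.6 and 59.8 CPM under DMSO to 47.4, 48.3 and 48.3 and 38.5, 41.9 and 41.3. Treated and DMSO libraries of each line did not overlap. The changes were 0.35 ± 0.0487 (SE, adjusted p = 4.63e-10) and 0.26 ± 0.0546 (SE, adjusted p = 0.000469) in WT cells. In KO cells they were -0.30 ± 0.0402 (SE, adjusted p = 4.20e-11) and -0.55 ± 0.0419 (SE, adjusted p = 7.84e-25).

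Ube2l6, the enzyme that carries activated ISG15, was a low RNA in T cells and fell there with either inhibitor, to 0.492 and 0.514 of its DMSO level. It held 6.44, 6.46 and 6.67 CPM under DMSO, 3.02, 2.32 and 4.29 with GSK3326595 and 3.04, 3.84 and 3.16 with MRTX1719. Both treated groups lay below DMSO and overlapped each other. The changes were -1.0 ± 0.173 (SE, adjusted p = 5.79e-07) and -0.96 ± 0.175 (SE, adjusted p = 3.78e-06), on 36 to 122 counts per library. In WT MC38 cells it went from 31.5, 30.00 and 29.5 CPM under DMSO to 22.98, 26.3 and 26.2 with GSK3326595 and 31.8 and 31.4 with MRTX1719. The first change was -0.27 ± 0.0514 (SE, adjusted p = 4.43e-06), and the second, 0.058 (95% interval -0.050 to 0.17, adjusted p = 0.621), did not pass. In KO cells it fell with GSK3326595 and rose with MRTX1719, from 42.9, 41.8 and 42.6 CPM to 36.7, 35.6 and 39.3 and to 45.7, 47.7 and 46.6. The changes were -0.19 ± 0.0461 (SE, adjusted p = 0.000213) and 0.14 ± 0.0450 (SE, adjusted p = 0.00403). A near copy of Ube2l6 in the annotation (Gm17167, 95.1% identical over 508 bases) had 1 to 22 counts in MC38 libraries and 13 to 28 in those of T cells. Ift46, 96.5% identical over a shorter stretch of 260 bases, had 774 to 1495 counts in MC38 libraries and 572 to 906 in those of T cells. Reads of Ube2l6 and such genes may be split, which bears most on the low T cell values.

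Herc6, the HERC ligase, showed the largest relative changes of the 9 genes in MC38 cells. WT libraries held 22.97, 22.8 and 23.5 CPM under DMSO, 8.35, 8.93 and 7.38 with GSK3326595 and 22.4 and 22.2 with MRTX1719. The GSK3326595 libraries were far below both other groups, with a change of -1.49 ± 0.0746 (SE, adjusted p = 7.51e-40), while the MRTX1719 change of -0.049 (95% interval -0.19 to 0.089, adjusted p = 0.775) did not pass. KO libraries held 5.39, 5.50 and 6.71 CPM under DMSO, 2.13, 2.75 and 2.44 with GSK3326595 and 2.29, 2.47 and 2.12 with MRTX1719. Both treated groups lay below DMSO and overlapped each other, with changes of -1.26 ± 0.130 (SE, adjusted p = 4.60e-16) and -1.35 ± 0.135 (SE, adjusted p = 2.22e-17). In T cells the pattern was another one. Libraries held 32.3, 30.3 and 28.5 CPM under DMSO and 32.1, 30.3 and 30.2 with GSK3326595, which overlapped, a change of 0.023 (95% interval -0.11 to 0.16, adjusted p = 0.806). With MRTX1719 they held 24.6, 22.2 and 25.1 CPM, below DMSO, a change of -0.34 ± 0.0724 (SE, adjusted p = 6.16e-05). Exons of Herc6 share 1269 bases, 13.66% of their length, with Gm45193 on the same strand, which had 0 counts in every library. How reads of that stretch were counted is not known here.

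Trim25, the RIG-I pathway ligase, fell in T cells with both inhibitors. It stood at 67.3, 74.1 and 68.6 CPM under DMSO, 37.6, 38.3 and 39.5 with GSK3326595 and 43.2, 40.7 and 39.02 with MRTX1719. The treated groups lay far below DMSO and overlapped each other, with changes of -0.86 ± 0.0558 (SE, adjusted p = 4.56e-25) and -0.77 ± 0.0560 (SE, adjusted p = 1.39e-21). In WT MC38 cells the means were 217 ± 3.10 CPM under DMSO, 179 ± 3.52 with GSK3326595 and 234 ± 0.811 with MRTX1719 (SD, n = 3, 3 and 2). GSK3326595 gave -0.28 ± 0.0243 (SE, adjusted p = 6.34e-20) and MRTX1719 gave 0.11 ± 0.0265 (SE, adjusted p = 0.00281), the latter with an adjusted p of 0.0629 without MRTX1719 library 1. In KO cells neither passed, at 0.010 (95% interval -0.038 to 0.058, adjusted p = 0.752) and 0.050 (95% interval 0.0017 to 0.10, adjusted p = 0.0592). The MRTX1719 change passed without KO DMSO library 3 (adjusted p = 0.0338) or without MRTX1719 library 1 (adjusted p = 0.0361).

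Parp9, Dtx3l and Parp14 are neighbours on chromosome 16 in the GENCODE annotation, in the order Parp14, Dtx3l, Parp9, with Parp9 and Dtx3l head to head on opposite strands. Exons of Parp9 and Dtx3l share 458 bases, 9.4% of the Parp9 and 8.0% of the Dtx3l exon length. The library kit keeps strand, but whether the counting used strand is not known here, so part of the reads of this pair may be shared or lost.

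With GSK3326595 in WT MC38 cells these 3 RNAs fell by similar amounts. Parp9 went from 98.3, 97.9 and 100.2 to 72.1, 74.6 and 73.1 CPM, a change of -0.43 ± 0.0315 (SE, adjusted p = 2.15e-25). Dtx3l went from 59.4, 58.5 and 61.1 to 48.3, 44.8 and 46.97 CPM, a change of -0.35 ± 0.0390 (SE, adjusted p = 3.53e-14). Parp14 went from 121, 118 and 115 to 89.2, 88.7 and 88.8 CPM, a change of -0.41 ± 0.0306 (SE, adjusted p = 1.16e-24). In each case the treated libraries lay below those with DMSO. In KO cells the falls were smaller, at -0.18 ± 0.0316 (SE, adjusted p = 2.38e-07) for Parp9 and -0.22 ± 0.0306 (SE, adjusted p = 1.57e-10) for Parp14. The Dtx3l fall of -0.089 ± 0.0361 (SE, adjusted p = 0.0308) overlapped with DMSO, and its adjusted p rose to 0.281 without KO DMSO library 3, 0.134 without GSK3326595 library 1, 0.105 without library 3, and 0.0734 in DESeq2.

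MRTX1719 moved these 3 RNAs little in MC38 cells. In WT cells Parp14 rose by 0.14 ± 0.0325 (SE, adjusted p = 0.00134), with libraries at 131 and 129.7 CPM. Parp9 at 0.056 (95% interval -0.010 to 0.12, adjusted p = 0.365) and Dtx3l at 0.082 (95% interval 8.7e-06 to 0.16, adjusted p = 0.253) did not pass. In KO cells Parp14 fell, with libraries at 113, 121 and 117 CPM under DMSO and 106, 105 and 105 with MRTX1719, a change of -0.15 ± 0.0307 (SE, adjusted p = 6.26e-06). Parp9 at 0.064 (95% interval 0.0021 to 0.13, adjusted p = 0.0597) and Dtx3l at 0.049 (95% interval -0.023 to 0.12, adjusted p = 0.223) again did not pass. The Parp9 change passed without KO DMSO library 3 (adjusted p = 0.0441) or without MRTX1719 library 3 (adjusted p = 0.0334).

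In T cells all 3 fell with MRTX1719 and parted with GSK3326595. Parp14 held 155, 153 and 150.1 CPM under DMSO, 166, 159.8 and 168 with GSK3326595 and 112, 112 and 119 with MRTX1719. The GSK3326595 libraries lay just above DMSO and the MRTX1719 libraries well below. Its rise of 0.11 ± 0.0395 (SE, adjusted p = 0.0150) had an adjusted p of 0.0535 without GSK3326595 library 1 and 0.0661 without library 3, and its fall with MRTX1719 was -0.42 ± 0.0408 (SE, adjusted p = 6.15e-15). Dtx3l held 148, 151 and 136 CPM under DMSO, 123, 119 and 119 with GSK3326595 and 114, 108 and 107 with MRTX1719, and the 3 groups did not overlap. The changes were -0.27 ± 0.0418 (SE, adjusted p = 3.51e-08) and -0.41 ± 0.0424 (SE, adjusted p = 8.68e-14). Parp9 held 78.7, 78.4 and 73.2 CPM under DMSO, 70.9, 75.8 and 71.3 with GSK3326595 and 58.9, 55.5 and 64.2 with MRTX1719. The first 2 groups overlapped, at -0.081 (95% interval -0.18 to 0.018, adjusted p = 0.167), and MRTX1719 gave -0.36 ± 0.0512 (SE, adjusted p = 4.93e-09).

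Other RNAs moved in the same T cell libraries, where 52.8% of all genes were called with GSK3326595 and 37.4% with MRTX1719. Of 8 T cell markers, 7 rose with GSK3326595 and 6 with MRTX1719, and their summed level was 3840 to 3865 CPM under DMSO, 5220 to 5236 with GSK3326595 and 4291 to 4382 with MRTX1719. Of 8 tested immediate early, heat shock and nuclear RNAs that can mark handling, 6 fell with GSK3326595, and 7 fell and 1 rose with MRTX1719. The summed level of the 10 listed was 5411 to 5707, 5001 to 5209 and 6579 to 7128 CPM in the 3 groups. Fibroblast and endothelial markers summed to 20.9 to 24.7, 39.3 to 44.6 and 20.8 to 24.4 CPM in the same order. Whether these shifts bear on the 9 genes was not tested. B cell markers summed to at most 6.71 CPM and myeloid and dendritic markers to at most 15.3 CPM in any T cell library.

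In MC38 cells such RNAs moved as well. The handling RNAs summed to 2934 to 2966 CPM in WT cells under DMSO, 2363 to 2433 with GSK3326595 and 2488 to 2489 with MRTX1719. In KO cells the sums were 1395 to 1448, 1090.4 to 1114 and 886 to 916 CPM. Of the 9 tested, 6 were lower and 1 higher in KO than in WT cells under DMSO, beside 73.2% of all genes called. The immediate early genes Atf3 (-2.94), Fosb (-2.63) and Fos (-2.37) led. With GSK3326595, 6 fell and 1 rose in WT cells, beside 41.1% of all genes called. In KO cells 4 fell and 1 rose, beside 52.8%. With MRTX1719, 6 fell in WT cells, beside 7.53% of all genes, or 1117, of which 580 fell. In KO cells 6 fell and 3 rose with MRTX1719, beside 70.5% of all genes. The 5 fibroblast and endothelial markers summed to 674 to 688, 815 to 832 and 651 to 668 CPM in WT cells and to 1459 to 1475, 1112 to 1168 and 780.1 to 809 in KO cells, in the same order of treatments. Among them Lum, a collagen-binding matrix protein gene, changed by 1.45 with GSK3326595 in WT cells. The 8 colon epithelial markers summed to 22.1 to 24.8, 38.5 to 40.2 and 24.2 to 24.9 CPM in WT cells and to 14.5 to 15.7, 59.1 to 61.9 and 58.7 to 60.7 in KO cells. Krt8, a keratin gene, made up most of these sums and rose in KO cells with GSK3326595 (2.06) and MRTX1719 (2.01). The 4 leukocyte markers summed to between 1.62 and 6.36 CPM in every MC38 library. The part of these shifts in the values of the 9 genes was not tested.

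Under DMSO the KO and WT lines differed in 6 of the 9 genes, 3 higher and 3 lower in KO, which is near the 73.2% called over all genes (36.2% higher, 37.0% lower). Herc6 was lowest relative to WT, at -1.97 ± 0.0827 (SE, adjusted p = 3.88e-49), followed by Usp18 at -0.92 ± 0.0374 (SE, adjusted p = 1.86e-50) and by Isg15. Uba7 was higher in KO cells by 1.21 ± 0.0451 (SE, adjusted p = 6.90e-55), Ube2l6 by 0.48 ± 0.0481 (SE, adjusted p = 1.58e-17) and Dtx3l by 0.31 ± 0.0371 (SE, adjusted p = 2.94e-13). Parp9 at -0.058 (95% interval -0.12 to 0.0038, adjusted p = 0.0866), Parp14 at -0.014 (95% interval -0.073 to 0.046, adjusted p = 0.688) and Trim25 at -0.048 (95% interval -0.10 to -0.00040, adjusted p = 0.0646) did not pass. With 1 line of each genotype, the knockout and any other difference between the lines cannot be told apart.

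The effect of GSK3326595 differed between the lines for 5 of the 9 genes, beside 42.2% of all genes (22.0% higher, 20.2% lower). The difference is given as the log2 change in KO minus that in WT cells. Uba7, which rose in WT and fell in KO cells, had the largest, at -0.66 ± 0.0631 (SE, adjusted p = 1.94e-17). Trim25 at 0.29 ± 0.0343 (SE, adjusted p = 1.10e-12), Dtx3l at 0.26 ± 0.0532 (SE, adjusted p = 1.21e-05), Parp9 at 0.25 ± 0.0447 (SE, adjusted p = 1.08e-06) and Parp14 at 0.19 ± 0.0433 (SE, adjusted p = 0.000170) fell more in WT cells. For Isg15 the difference was 0.037 (95% interval -0.052 to 0.13, adjusted p = 0.544) and for Usp18 -0.033 (95% interval -0.14 to 0.076, adjusted p = 0.676). Ube2l6 had 0.079 (95% interval -0.057 to 0.22, adjusted p = 0.378) and Herc6 0.23 (95% interval -0.078 to 0.54, adjusted p = 0.242), none of which passed.

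The effect of MRTX1719 differed between the lines for 4 of the 9 genes, all more negative in KO cells, beside 58.2% of all genes (27.9% lower). Herc6 led at -1.30 ± 0.153 (SE, adjusted p = 1.82e-13), from 5.87 to 2.29 CPM in KO cells against 23.1 to 22.3 in WT cells. Uba7 followed at -0.80 ± 0.0690 (SE, adjusted p = 5.78e-21), then Parp14 at -0.29 ± 0.0447 (SE, adjusted p = 6.08e-09) and Isg15 at -0.23 ± 0.0458 (SE, adjusted p = 5.67e-06). For Usp18 the difference was -0.043 (95% interval -0.15 to 0.065, adjusted p = 0.516), for Parp9 0.0079 (95% interval -0.083 to 0.10, adjusted p = 0.899) and for Dtx3l -0.033 (95% interval -0.14 to 0.075, adjusted p = 0.628). Ube2l6 at 0.081 (95% interval -0.059 to 0.22, adjusted p = 0.336) and Trim25 at -0.058 (95% interval -0.13 to 0.013, adjusted p = 0.158) did not pass either.

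**Figure D3:**
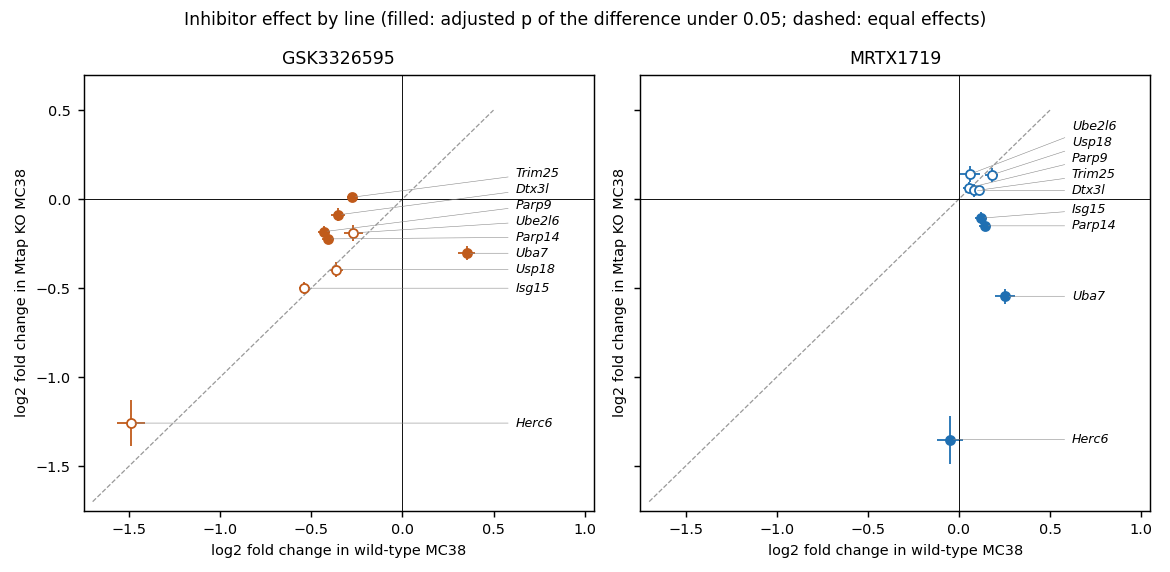
Log2 fold change in WT (x axis) against KO MC38 cells (y axis) for each inhibitor, with standard errors; filled points have an adjusted p under 0.05 for the difference between the lines and the dashed line marks equal effects. With GSK3326595 the Isg15, Usp18 and Ube2l6 points lie near the dashed line and Uba7 far below it. Herc6 differs between the lines by 0.23 ± 0.157 (SE), which did not pass. With MRTX1719 Herc6 lies near 0 in WT and at -1.35 in KO cells.

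The 2 inhibitors were also compared directly, at the same dose and time within each kind of cell. In WT MC38 cells 8 of the 9 RNAs were higher with MRTX1719 than with GSK3326595, beside 30.0% of all genes (15.4% higher). Herc6 differed by 1.44 ± 0.0812 (SE, adjusted p = 1.14e-34), Isg15 by 0.66 ± 0.0321 (SE, adjusted p = 1.04e-40), and the other 6 by 0.33 (Ube2l6) to 0.55 (Parp14). Uba7 was the exception, at -0.10 (95% interval -0.20 to 0.0063, adjusted p = 0.160). In KO cells 6 were higher and 1 lower with MRTX1719, beside 53.2% of all genes (28.3% higher, 24.9% lower). Usp18 differed by 0.53 ± 0.0423 (SE, adjusted p = 5.27e-23), Isg15 by 0.39 ± 0.0346 (SE, adjusted p = 4.33e-20), Ube2l6 by 0.33 ± 0.0452 (SE, adjusted p = 1.83e-10) and Parp9 by 0.25 ± 0.0313 (SE, adjusted p = 8.19e-12). Uba7 was lower, by -0.24 ± 0.0426 (SE, adjusted p = 3.92e-07). Dtx3l differed by 0.14 and Parp14 by 0.073 ± 0.0309 (SE, adjusted p = 0.0373). That Parp14 call was lost in 5 of the 6 fits without 1 library, in DESeq2, in the fit on the 2 groups alone and without the low-count filter, with adjusted p from 0.0573 to 0.259. Herc6 at -0.093 (95% interval -0.41 to 0.23, adjusted p = 0.657) and Trim25 at 0.040 (95% interval -0.0080 to 0.088, adjusted p = 0.162) did not pass.

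In T cells 6 of the 9 RNAs were lower and Isg15 was higher with MRTX1719 than with GSK3326595, beside 39.1% of all genes (19.3% higher, 19.7% lower). Isg15 differed by 0.79 ± 0.0773 (SE, adjusted p = 3.66e-15). Uba7 at -0.70 ± 0.0396 (SE, adjusted p = 2.48e-28) and Parp14 at -0.53 ± 0.0404 (SE, adjusted p = 1.81e-20) had the largest differences downward, followed by Herc6 at -0.36, Parp9 at -0.28, Usp18 at -0.25 and Dtx3l at -0.14. The Usp18 call had an adjusted p of 0.0262 and was lost without GSK3326595 library 1 or 3, without MRTX1719 library 1 or 3, in DESeq2 and without the low-count filter, with values from 0.0523 to 0.144. The Dtx3l call had an adjusted p of 0.00610, and 0.0548 without MRTX1719 library 3. Ube2l6 at 0.041 (95% interval -0.34 to 0.42, adjusted p = 0.893) and Trim25 at 0.085 (95% interval -0.033 to 0.20, adjusted p = 0.269) did not pass.

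To rank the genes against each other, CPM was divided by the merged length of all annotated exons of a gene in kilobases (GENCODE, GRCm38). The transcripts made in these cells may be shorter, so the ranks depend on this choice of length. Isg15 led in every MC38 group, from 84.8 ± 3.53 (KO, GSK3326595) to 225 ± 7.24 CPM per kb (WT, MRTX1719), followed by Trim25 at 31.1 ± 0.611 to 40.7 ± 0.141. Herc6 was last in every MC38 group, from 0.247 ± 0.0186 to 2.48 ± 0.0410 CPM per kb, with Uba7 next to last. In the KO DMSO group Dtx3l at 12.9 ± 0.571 and Parp14 at 12.5 ± 0.419 CPM per kb did not differ beyond their spread. In T cells under DMSO, Isg15 at 95.8 ± 1.51 was followed by Uba7 at 26.01 ± 1.0 and Dtx3l at 25.4 ± 1.37 CPM per kb, 2 neighbours within their spread. Parp14 at 16.4 ± 0.243 and Parp9 at 15.8 ± 0.629 were also within theirs, as were Herc6 at 3.27 ± 0.200 and Ube2l6 at 3.27 ± 0.0629, the last. With GSK3326595 the T cell order changed: Uba7 led at 32.5 ± 1.07, then came Dtx3l at 21.03 ± 0.370 and Isg15 at 19.2 ± 2.08 CPM per kb, the last pair within their spread. With MRTX1719 Isg15 led at 33.5 ± 2.07 CPM per kb. The MC38 and T cell tables were normalized separately, so levels were not tested between them.

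Across libraries the 9 genes did not move as 1 block. Pearson's r of log2 CPM between pairs of them had a median of 0.322 over the 17 MC38 libraries and 0.765 when each line was centred on its own mean, as a description of libraries that fall into 6 treatment groups. Isg15 and Usp18 had r = 0.977, and Isg15 and Uba7 r = -0.782, which was 0.921 and -0.137 with the lines centred. Centred by line, every pair without Uba7 had a positive r, from 0.492 (Ube2l6 and Herc6) to 0.948 (Parp9 and Dtx3l). Over the 9 T cell libraries, in 3 treatment groups, the median was 0.71. There Isg15 went with Trim25 (r = 0.955) and Ube2l6 (0.907), and Uba7 with Parp14 (0.948) and Herc6 (0.854), while Isg15 and Parp14 had r = -0.013.

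**Figure D4:**
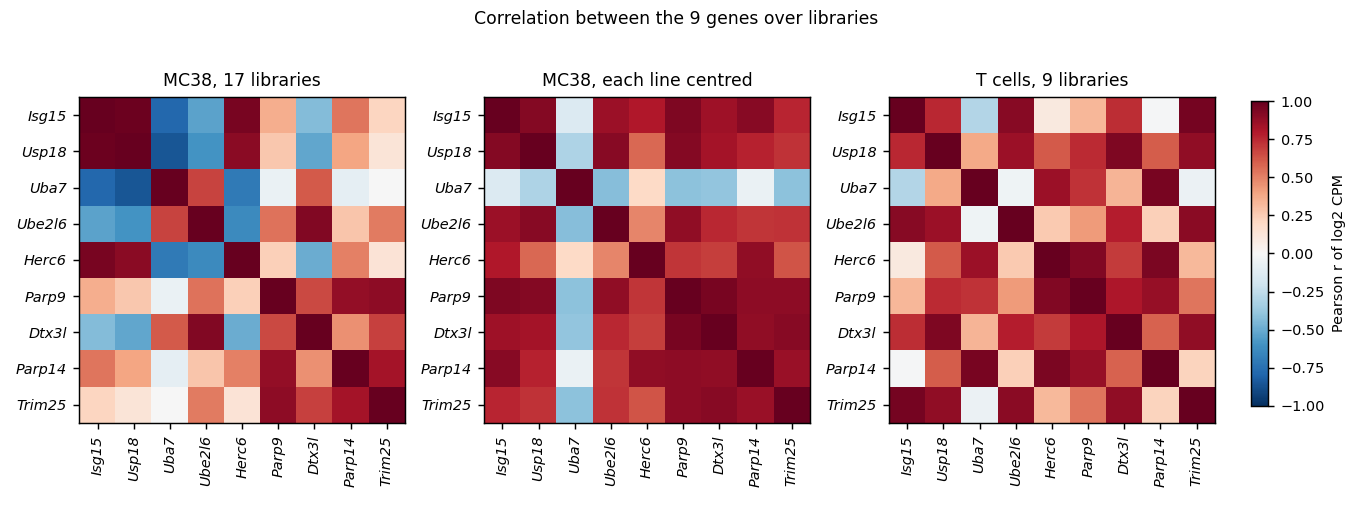
Pearson's r of log2 CPM between the 9 genes over MC38 libraries as measured (left), MC38 libraries with each line centred on its mean (middle) and T cell libraries (right), from -1 (blue) to 1 (red). Centring the lines removes most negative values except those of Uba7, and in T cells Isg15, Ube2l6 and Trim25 form a red set apart from Uba7, Herc6 and Parp14.

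The genes outside the 9 with the most similar pattern, among those with a mean of at least 5 CPM, included known interferon-stimulated genes. Over the 17 MC38 libraries the nearest to Isg15 was Ifi44 (r = 0.989), to Herc6 the RNA sensor gene Ifih1 (0.99), to Dtx3l Stat2 (0.959), to Ube2l6 Lgals9 (0.981), to Parp14 Cmpk2 (0.911) and to Parp9 Znfx1 (0.917). For Usp18 it was Naa20 (0.987), for Uba7 Pdp1 (0.987) and for Trim25 Nktr (0.906). Over the 9 T cell libraries it was Oas3 for Isg15 (0.998), Traf3 for Usp18 (0.985), Prkd2 for Uba7 (0.993), Nhlrc2 for Ube2l6 (0.977) and Ccdc82 for Herc6 (0.981). It was Smchd1 for Trim25 (0.996), Sprtn for Parp9 (0.984), Sp1 for Dtx3l (0.985) and Nlrc5, the activator of class I genes, for Parp14 (0.984). With so few group patterns many genes reach such values, and ranking by Spearman's rho left none of the first 3 for Isg15 in place in either table. With each MC38 line centred on its own mean, 1 of the first 3 stayed for Isg15 and for Ube2l6. None stayed for Usp18, Uba7, Herc6, Parp9, Dtx3l, Parp14 or Trim25.

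Genes that surround the 9 in the pathway were described from lists of related genes. For the counts below, the shares called over all genes are those given with the 9 genes above. Of 30 other interferon-stimulated genes, 27 fell with GSK3326595 in WT MC38 cells, with a median log2 change of -0.44, led by Psmb9 (-0.91), B2m (-0.80) and Bst2 (-0.80). In KO cells 27 fell and 1 rose (median -0.46). With MRTX1719, 9 rose and 2 fell in WT cells (median 0.083), and 23 fell and 3 rose in KO cells (median -0.26). In T cells 21 fell and 7 rose with GSK3326595 (median -0.76), and 23 fell and 3 rose with MRTX1719 (median -0.70). Mx2 (-3.61 and -2.08) and Oasl1 (-2.94 and -1.77), antiviral genes, led there. The median of the 9 genes was closer to 0 than that of this list in 5 of these 6 comparisons, and farther from 0 for MRTX1719 in WT cells.

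Factors that relay interferon signals moved in part with the 9 genes. Of 17 receptors, kinases, STAT, IRF and SOCS genes, 8 fell and 3 rose with GSK3326595 in WT cells, and 8 fell and 5 rose in KO cells. With MRTX1719, 2 rose in WT cells, and 9 fell and 4 rose in KO cells. Irf7, an interferon-induced transcription factor, fell with GSK3326595 in WT (-1.16) and KO cells (-0.83) and with both inhibitors in T cells (-1.01 and -0.77). In T cells 4 of the 17 fell and 7 rose with GSK3326595, and 7 fell and 3 rose with MRTX1719, with Stat2 (-0.58 and -0.71) and Irf9 (-0.50 and -0.51) among the fallen.

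RNA of the interferons themselves was scarce. The 9 listed type I interferon genes (Ifnb1 and Ifna genes) had 2 to 11 counts per MC38 group in all. In T cells they summed to 22, 12 and 20 counts under DMSO, 0, 3 and 10 with GSK3326595 and 3, 6 and 9 with MRTX1719, and none of them passed the filter, so no test was made. Ifng, the type II interferon, rose in T cells with GSK3326595 (0.61) and MRTX1719 (0.46), and had at most 1 count per MC38 group.

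Genes related to ISG15 and ubiquitin conjugation were also listed. Of 17 tested (ubiquitin E1, E2 and HERC relatives, deubiquitinases, the integrin genes of an ISG15 receptor and Isg20), 6 rose and 1 fell with GSK3326595 in WT cells, a share near that called over all genes, and 11 rose and 1 fell in KO cells. With MRTX1719 none of the 17 passed in WT cells, where their log2 changes ran from -0.33 to 0.34 (median 0.033). In KO cells 11 rose and 2 fell, beside 70.5% of all genes called (37.0% higher, 33.6% lower). In T cells 3 rose and 7 fell with GSK3326595, and 2 rose and 8 fell with MRTX1719. Isg20, an interferon-induced exonuclease, led there at -1.23 and -0.85. Of 17 other PARP and Deltex genes, 7 fell and 4 rose with GSK3326595 in WT cells, among the fallen Parp3 (-0.42), Parp4 (-0.35) and Parp12 (-0.30). In KO cells 5 fell and 5 rose, a share near the 52.8% called over all genes. In T cells 6 fell and 5 rose with GSK3326595, again near the 52.8% of all genes, with Parp8 at 0.82 and Tiparp at -0.72. There 9 fell and 1 rose with MRTX1719, beside 37.4% of all genes. With MRTX1719 in MC38 cells, 1 rose in WT cells, and 9 rose and 6 fell in KO cells. Of the TRIM and RIG-I genes, 10 of 14 fell with GSK3326595 in WT cells, led by Trim30d (-0.91) and Trim12c (-0.84), and 9 of 14 in KO cells, where 2 rose. With MRTX1719, 3 of 14 rose in WT cells, and 8 fell and 2 rose in KO cells. In T cells 8 of 15 fell and 1 rose with GSK3326595, and 10 fell and 1 rose with MRTX1719, with Trim30d (-1.46 and -1.11) and Trim30a (-1.15 and -0.83) the largest.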

How the data were processed

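RNA went through Trizol and a column, then a stranded poly(A) kit and NovaSeq X plus sequencing, per the labels' protocols. For each of MC38 and T cells the authors deposited a table of raw counts and a table of normalized signal. TopHat2 2.0.10, Bowtie2 2.1.0, DESeq 1.18.0 and GRCm39 (mm39) are named in the submitters' processing notes. Which counter, annotation and strand setting were used is not given in the sources used here. Each deposited normalized signal equalled its raw count over a size factor of the library (tolerance 1e-06), which tied the authors' symbols to gene identifiers, for all 9 members too.

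Raw counts of each table were fitted in R 4.3.3 with edgeR 4.0.16 (quasi-likelihood F test, robust, after TMM and filterByExpr on the groups), all groups of a table together. Adjusted p-values are Benjamini-Hochberg over all genes tested, at 0.05, and the 12 comparisons are those of the text. Errors after ± are SD for levels and SE for log2 changes, and intervals are 95%. The fit was also run on counts simulated with its own estimates of spread, which cannot show whether those estimates hold. The 9 genes and the related lists were chosen with earlier results of these data known. The text names all 9 genes, at most 3 called genes of each other list per comparison with the largest change, the top one of the 3 genes most correlated with each member, and Mtap. A few markers (Krt8, Epcam, Dcn, Pdgfra, Cd4) were named after their values were seen. Alternatives were DESeq2 1.42.0, RLE scaling, no low-count filter, only the compared groups, a replicate block and each library left out. Sequences are from RefSeq (GRCm38.p6) and gene models from GENCODE on GRCm38, since the deposited build was not used here for coordinates.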

Additional observations from a re-analysis of the deposited data

Results flagged for a closer look

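The inhibitor effects of some of the 9 genes differed between the MC38 lines by the test of the difference itself (edgeR quasi-likelihood test, log2 change in KO minus WT cells). With GSK3326595 these were 5 of 9, beside 42.2% of all genes, namely Uba7 (-0.66), Trim25 (0.29), Dtx3l (0.26), Parp9 (0.25) and Parp14 (0.19). With MRTX1719 they were 4 of 9, a smaller share than the 58.2% of all genes, namely Herc6 (-1.30), Uba7 (-0.80), Parp14 (-0.29) and Isg15 (-0.23). Uba7 and Parp14 were on both lists, and Parp14 with opposite signs.

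Some RNAs moved one way in every treated library of an MC38 line and the other way in every treated T cell library. The tables were normalized separately, so these differences were not tested. With GSK3326595 Parp14 had a log2 change of -0.41 in WT and -0.22 in KO MC38 cells against 0.11 in T cells, and Uba7 had -0.30 in KO cells against 0.32. In WT MC38 cells Uba7 rose with GSK3326595 (0.35), as it did in T cells. With MRTX1719 in WT MC38 cells the values were 0.12 for Isg15, 0.18 for Usp18, 0.26 for Uba7, 0.056 for Parp9, 0.082 for Dtx3l, 0.14 for Parp14 and 0.11 for Trim25. The Parp9 and Dtx3l values did not pass their own test. In KO cells they were 0.14 for Usp18, 0.14 for Ube2l6 and 0.064 for Parp9, of which Parp9 did not pass. Isg15 (-0.11), Uba7 (-0.55) and Parp14 (-0.15) fell with MRTX1719 in KO cells, the same direction as in T cells. All of these genes fell with MRTX1719 in T cells, from -0.36 (Parp9) to -1.51 (Isg15). Over all genes, libraries with MRTX1719 and DMSO did not overlap for 36.4% in WT, 72.1% in KO and 45.7% in T cells. With GSK3326595 these shares were 49.9%, 56.4% and 58.1%. How many of all genes also moved in opposite directions was not counted. The durations differed too, 5 days for MC38 cells and 3 for T cells.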

How the results depend on the processing

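The 108 log2 changes of the 9 genes were recomputed under 1269 alternatives in all. Of these, 1220 kept their direction and their side of the threshold, 24 lost the call, 7 gained one and 18 changed sign. The gained calls fell on 4 results. These were Trim25 and Parp9 with MRTX1719 in KO cells, and Trim25 in KO against WT under DMSO and for the MRTX1719 effect in KO minus WT cells. No change that passed in the reported fit changed sign. Sign changes were seen in 7 results near 0 that did not pass. Without the low-count filter Parp9 had -0.0254 for the MRTX1719 effect in KO minus WT cells and Trim25 -0.00266 for GSK3326595 in KO cells. With only the compared groups these were -0.0224 and -0.00188. Leaving out 1 library at a time gave -0.0763 to 0.00792 for Dtx3l (the MRTX1719 effect in KO minus WT cells), -0.0202 to 0.0718 for Herc6 (GSK3326595 in T cells), -0.17 to 0.00572 for Herc6 (MRTX1719 against GSK3326595 in KO cells), -0.0327 to 0.0151 for Parp14 (KO against WT under DMSO), -0.00518 to 0.0245 for Parp9 (the MRTX1719 effect in KO minus WT cells), -0.00172 to 0.0249 for Trim25 (GSK3326595 in KO cells), -0.13 to 0.31 for Ube2l6 (MRTX1719 against GSK3326595 in T cells). The count of the 9 genes called stayed within 1.5 times its reported value in 11 of the 12 comparisons, and lay between 3 and 5 with MRTX1719 in WT cells, for which DESeq2 called 711 genes over the whole table. The cause of these shifts was not tested. RLE scaling changed no call of the 9 genes.

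Same-numbered libraries did not deviate together (correlations from -0.045 to 0.058), so the numbers were not taken as pairs. A fit with a replicate block changed none of the 108 calls and gave, for example, 9 of 9 genes called with GSK3326595 in WT cells and 5 with MRTX1719. Depth limits Ube2l6 in T cells (36 to 122 counts per library) and Herc6 in KO cells most.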
